A study of Drosophila melanogaster with 4 samples.

Results

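Transcripts of 10 genes that encode UDP-glycosyltransferases (UGTs) were followed in 4 mRNA-seq libraries of adult Drosophila heads. The genes are Ugt35a, Ugt35b, Ugt36Ba, Ugt36Bb, Ugt36Bc, Ugt37b1, Ugt37c1, Ugt58Fa, Ugt86Dd and CG5999. Of these, 9 were chosen by name, as UGTs of the head and antenna, and CG5999 was picked on its low FPKM in flies with phenotypic variations. Its difference between the groups is therefore given as a description with no test. All 10 genes, and the gene lists below, were chosen with earlier results of these data known. Their counts beside the shares of all genes are thus descriptions too. The members are 10 of the 35 UGT genes in the table, and of 16680 gene rows in all. The names are those of the deposited table. In the current nomenclature Ugt35a is Ugt35A1, Ugt35b is Ugt35B1, Ugt36Ba is Ugt37C2, Ugt36Bb is Ugt37E1, Ugt36Bc is Ugt37D1, Ugt37b1 is Ugt37B1, Ugt37c1 is Ugt37C1, Ugt58Fa is Ugt317A1, Ugt86Dd is Ugt35C1 and CG5999 is Ugt37A3.

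UGTs are membrane-bound enzymes of the endoplasmic reticulum that transfer a sugar from a UDP sugar donor, in insects mostly UDP-glucose, to small lipophilic molecules. The conjugate is more water-soluble and can be exported, so UGTs are counted among the phase II enzymes of detoxification, after the phase I oxidation by cytochrome P450s. Their substrates include plant toxins, insecticides, pigments, hormones and odorants. In insects UGT transcripts are found in gut, fat body, Malpighian tubule and antenna, where the enzymes are thought to take part in clearing odorants.

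All flies were adult males of the F1 generation and carried Kr[If-1], a dominant gain-of-function allele of Krüppel that drives Krüppel ectopically in the developing eye and makes eye morphology easily perturbed. The stock also carries the black allele b1. Parents of both groups had been kept on food with Cr(VI), given as K2Cr2O7 at 10 µM, so no library came from the progeny of unexposed parents. The groups are F1 flies without and F1 flies with phenotypic variations of the eye, called unaffected and affected here (no phenotype and with phenotype in the plots), with 2 biological repeats each and RNA of 10 pooled heads per library. The sources do not state adult age, and heads hold eye, brain, antenna, fat body, cuticle and muscle together. The comparison asks whether flies that differ in phenotype, with the same allele and the same parental exposure, also differ in the mRNA levels of these enzymes.

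Values are FPKM, read numbers scaled to transcript length and library size, so levels can be compared between genes. The number of reads is unknown from FPKM, but the size of the lowest values gave relative depths from 0.969 to 1.10 of that of unaffected repeat 1. Head identity was clear from photoreceptor and neuronal markers, with ninaE at 544 to 948 FPKM and nSyb at 360 to 428 FPKM. Markers of the gut stood apart in 1 library. The summed level of 18 gut markers reached 512 FPKM in unaffected repeat 1, against 59.7 FPKM in unaffected repeat 2 and 87.7 and 229 FPKM in affected repeats 1 and 2. Testis markers were at 0.46 FPKM or less in every library.

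The levels of the UGT genes in the head covered a wide range. Ugt35b was the most abundant UGT transcript in each of the 4 libraries, at 66.0 to 89.0 FPKM, which placed its mean at percentile 92.2 of all rows. Of the others of the 10, Ugt86Dd followed at 45.7 to 65.4 FPKM, a range that lay just below that of Ugt35b. Ugt36Bc was at 29.3 to 46.8 FPKM. Its range over libraries overlapped that of Ugt86Dd, but within each of the 4 libraries Ugt86Dd was the higher one. Ugt35a was lower, at 12.4 to 20.5 FPKM, and Ugt58Fa lower again, at 2.39 to 2.97 FPKM. CG5999 had no single place in this order, since it ranked 2 and 3 among the 35 UGT genes in the unaffected libraries and 14 and 13 in the affected ones. The remaining 4 genes, Ugt36Bb, Ugt36Ba, Ugt37b1 and Ugt37c1, were at 0.05 to 0.42 FPKM with overlapping ranges, and their order cannot be told. Together the 10 genes made up 42.2% to 49.8% of the summed FPKM of the family.

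**Figure D1:**
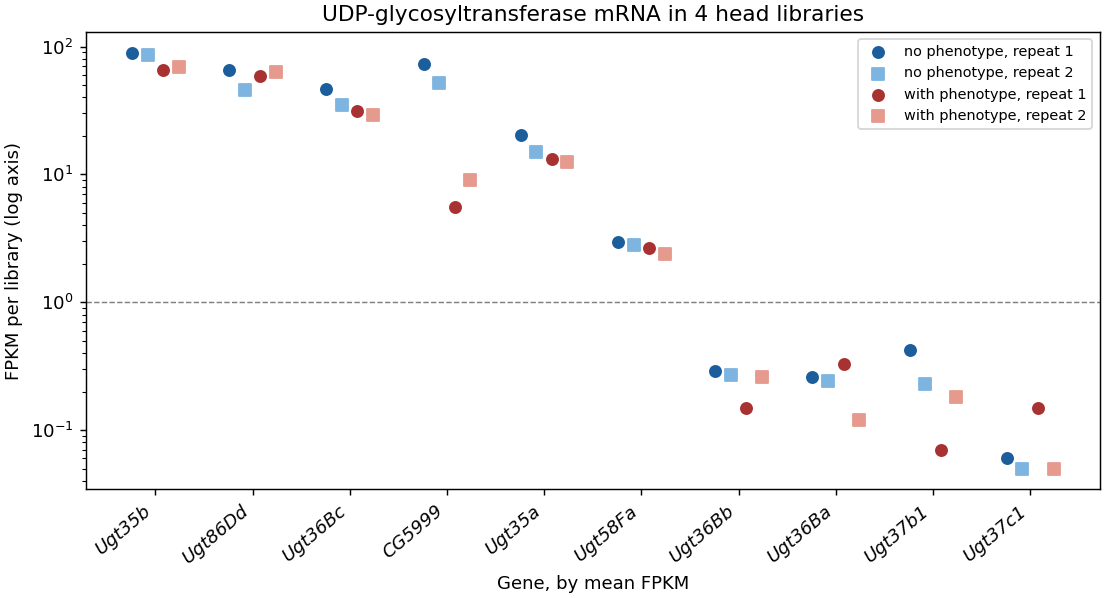
FPKM of the 10 UGT genes (log axis), with 1 point per library and the genes in the order of their mean. The dashed line marks the minimum mean of 1 FPKM that a gene needed to be tested. In CG5999 both affected libraries, at 5.57 and 8.98 FPKM, lie far below both unaffected ones, at 72.7 and 52.0 FPKM.

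Of the 9 genes other than CG5999, 5 reached the minimum mean of 1 FPKM and entered the test across all genes, limma on log2(FPKM + 1) with Benjamini-Hochberg adjustment. None passed the threshold of an adjusted p under 0.1, which 0.0883% of the 10194 genes tested did, and none passed with limma without the mean-variance trend. At an unadjusted p under 0.05 there were 2 of the 5, Ugt35a and Ugt35b, both lower in affected heads. Of all genes tested 22.7% reached that level in either direction and 6.67% as lower. In 4 of the 5, both affected libraries lay below both unaffected ones, against 18.3% of all genes tested, and in 0 of the 5 above both, against 41.3% of all genes tested. These differences were small, and a gene that did not pass is not shown to be unchanged. In bulk samples, fewer cells of a type and less RNA per cell cannot be told apart. With 2 libraries per group an exact permutation test of a single gene cannot give a two-sided p under 0.33.

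Ugt35b and Ugt35a are neighbors in a cluster on chromosome 3R, and Ugt35b transcripts have been described as enriched in the antenna. Ugt35b was at 89.0 and 85.1 FPKM in unaffected repeats 1 and 2, and at 66.0 and 69.2 FPKM in affected repeats 1 and 2. The groups did not overlap, and the repeats of each group lay close to each other. The mean was 87.0 ± 2.69 FPKM in unaffected and 67.6 ± 2.31 FPKM in affected heads (SD, n = 2), a log2 fold change of -0.36 ± 0.085 (SE, limma adjusted p = 0.153). Ugt35a was at 20.5 and 15.1 FPKM in unaffected and 13.2 and 12.4 FPKM in affected heads. Unaffected repeat 1 was the highest library, and the other 3 lay close together without overlap between the groups. The log2 fold change was -0.43 ± 0.155 (SE, limma adjusted p = 0.210), and -0.22 without unaffected repeat 1. Ugt35b stayed at 4.34 to 5.65 times the level of Ugt35a in all 4 libraries. Of the pair, Ugt35b thus had the more even difference between groups, at -0.33 without that library.

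Ugt36Bc lies at the end of a tandem array on chromosome 2L, and was the only gene of that array at a substantial level. It was at 46.8 and 35.0 FPKM in unaffected and 31.4 and 29.3 FPKM in affected heads. As for Ugt35a, unaffected repeat 1 was the highest library and the groups did not overlap. The mean was 40.9 ± 8.40 FPKM in unaffected and 30.3 ± 1.48 FPKM in affected heads (SD, n = 2), a log2 fold change of -0.41 ± 0.157 (SE, limma adjusted p = 0.226), and -0.20 without unaffected repeat 1. Ugt35a and Ugt36Bc were thus both highest in the library with the most gut marker transcripts, as were Ugt35b, Ugt86Dd, Ugt58Fa and CG5999. The part of those transcripts in the differences between groups was not tested beyond leaving that library out.

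Ugt86Dd, in which natural variation has been linked to the survival of larvae on nicotine, was the one member of the 5 with overlapping groups. It was at 65.4 and 45.7 FPKM in unaffected and 58.6 and 63.1 FPKM in affected heads. The unaffected libraries held both the highest and the lowest value, so the sign of the difference is not settled. The log2 fold change was 0.15 ± 0.188 (SE, limma adjusted p = 0.644), and it turned to -0.10 without unaffected repeat 2. Ugt58Fa was at 2.97 and 2.79 FPKM in unaffected and 2.67 and 2.39 FPKM in affected heads. Its groups did not overlap but came within 0.12 FPKM of each other (log2 fold change -0.14 ± 0.110 SE, limma adjusted p = 0.478).

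The 4 genes with a mean under 1 FPKM were not tested, and their values rest on few reads. Ugt36Bb was at 0.29 and 0.27 FPKM in unaffected and 0.15 and 0.26 FPKM in affected heads, and Ugt36Ba at 0.26 and 0.24 FPKM in unaffected and 0.33 and 0.12 FPKM in affected heads. Of this pair only Ugt36Bb had no overlap between groups, by 0.01 FPKM. Ugt37b1 was at 0.42 and 0.23 FPKM in unaffected and 0.07 and 0.18 FPKM in affected heads, with no overlap and about 6.77 to 36.8 reads per library as estimated from the lowest values. Ugt37c1 was at 0.06 and 0.05 FPKM in unaffected and 0.15 and 0.05 FPKM in affected heads, or about 4.25 to 14.5 reads. No statement on a difference between groups can rest on these levels.

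CG5999, the gene picked on its difference, had the most negative fold on log2(FPKM + 1) of the 18 UGT genes at or above the minimum mean. It was at 72.7 and 52.0 FPKM in unaffected repeats 1 and 2, and at 5.57 and 8.98 FPKM in affected repeats 1 and 2. The lower unaffected library was 5.79-fold above the higher affected library, and the extremes differed 13.1-fold. The mean was 62.3 ± 14.7 FPKM in unaffected and 7.28 ± 2.41 FPKM in affected heads (SD, n = 2), 8.57-fold lower in the latter, a log2 fold change of -2.95 on FPKM + 1. Among the 10194 genes tested it had rank 7 of the largest decreases on this scale. Since CG5999 was picked on this difference, no p is given. CG5999 made up 12.1% and 10.0% of the summed UGT FPKM in unaffected and 1.32% and 2.15% in affected heads. Without the library with the most gut markers the log2 fold change was -2.71, with 1 unaffected library left. The part of gut transcripts in this difference was not tested.

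The nearest gene to CG5999 is another UGT, CG5724 (Ugt37A2), whose end lies 541 bp from CG5999 in tail-to-tail orientation. In dm6, CG5724 lies on 3R from 12739642 to 12741417 on the plus strand, and CG5999 from 12741958 to 12743680 on the minus strand, each with 2 exons. CG5724 was at 1.29 and 0.45 FPKM in unaffected and 0.03 and 0.05 FPKM in affected heads. Both affected libraries again lay below both unaffected ones, by 9-fold or more. CG5724 had about 111 and 42.4 estimated reads in the unaffected libraries, but only about 2.85 and 4.17 in the affected ones. With a mean under 1 FPKM it was not tested. As a share of the level of CG5999, CG5724 was at 1.77% and 0.866% in unaffected repeats 1 and 2. In affected repeats 1 and 2 it was at 0.539% and 0.557%. Reads shared between these related genes could have been split by the quantification, so the values of CG5724 are uncertain. On the other side the nearest gene in the table is beat-Vc, a cell adhesion gene 2356 bp away, at 9.09 and 9.10 FPKM in unaffected and 10.4 and 12.5 FPKM in affected heads (limma adjusted p = 0.206). The malic enzyme gene Men, on the far side of CG5724, was likewise at the higher level in affected heads, at 414 and 376 FPKM in unaffected and 492 and 498 FPKM in affected heads (limma adjusted p = 0.187). A noncoding RNA gene between Men and CG5724, CR44231, was at 0 to 0.06 FPKM, too low to compare.

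The genes with the profile most like that of CG5999 over the 4 libraries were CG4500, Fbp2, Lsp1gamma, Edg91 and Fbp1, by the smallest Euclidean distance of centered log2(FPKM + 1) values, from 0.806 to 1.06. Fbp2, Lsp1gamma and Fbp1 encode proteins of the larval fat body and hemolymph, and Edg91 a cuticle protein. CG4500, the closest, was at 43.6 and 48.8 FPKM in unaffected and 4.02 and 3.43 FPKM in affected heads. Fbp2 was at 46.3 and 57.9 FPKM in unaffected and 9.69 and 7.21 FPKM in affected heads, and Edg91 at 17.0 and 11.5 FPKM in unaffected and 2.67 and 3.0 FPKM in affected heads. No UGT was among these 5. Since CG5999 was picked on its difference, genes close to it by this measure must have a large decrease as well. Their log2 fold changes were -3.32 for CG4500 to -1.97 for Edg91. With 4 libraries such likeness is a description.

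Some UGT genes that lie side by side differed widely in level, while others were close. CG4302 and CG15661, 463 bp apart, differed 1.35-fold in mean FPKM, and CG17323 and CG17322, 54 bp apart, 1.38-fold. Ugt35a, Ugt35b and Ugt86Dd belong to a group of 10 UGT genes that spans 51.3 kb on 3R, from 11126597 to 11177910 in dm6. Ugt35b lies from 11168503 to 11170246 and Ugt35a from 11170817 to 11172664, both on the minus strand with 2 exons and 571 bp apart. On the other side of Ugt35b, 522 bp away on the same strand, Ugt86De was at 1.13 to 1.62 FPKM, and its mean was 59.9-fold below that of Ugt35b. Past Ugt35a, Ugt86Dj was at 0.09 to 0.60 FPKM, with a mean 65.8-fold below that of Ugt35a. Ugt86Da, on the plus strand, was the other abundant gene of the group. It was at 64.8 and 50.02 FPKM in unaffected and 36.4 and 37.2 FPKM in affected heads (log2 fold change -0.61 ± 0.143 SE, limma adjusted p = 0.149). The groups did not overlap, and this was the largest decrease among the tested UGT genes after CG5999. Ugt86Dd, from 11126597 to 11128328, is set 22698 bp apart from the rest. The other genes of the group were low. Ugt86Di was at 2.70 to 3.35 FPKM, Ugt86Dc at 0.43 to 0.91 FPKM, Ugt86Dh at 0.22 to 1.15 FPKM and Ugt86Dg at 0.08 to 0.33 FPKM. Ugt86Dg, at 0.08 and 0.18 FPKM in unaffected and 0.23 and 0.33 FPKM in affected heads, was the single UGT gene with both affected libraries above both unaffected ones. Of the 6 genes of the group that were tested, 4 had a lower and 2 a higher mean in affected heads.

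The array on 2L holds Ugt36Ba, Ugt36Bb and Ugt36Bc within 7.37 kb, from 16794211 to 16801584, all on the plus strand. The mean FPKM of Ugt36Bc was 147-fold above that of Ugt36Bb, whose end lies 752 bp before it. Ugt36Bc exceeded the sum of the other 2 by 65.3-fold to 85.2-fold in each library, so this contrast within the array held in both groups. Among the other genes described, Ugt37b1 lies on 2L from 6225048 to 6226842, Ugt37c1 on 2R from 16843296 to 16845038 and Ugt58Fa on 2R from 22641786 to 22643917. No other annotated gene overlapped any of the 10.

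**Figure D2:**
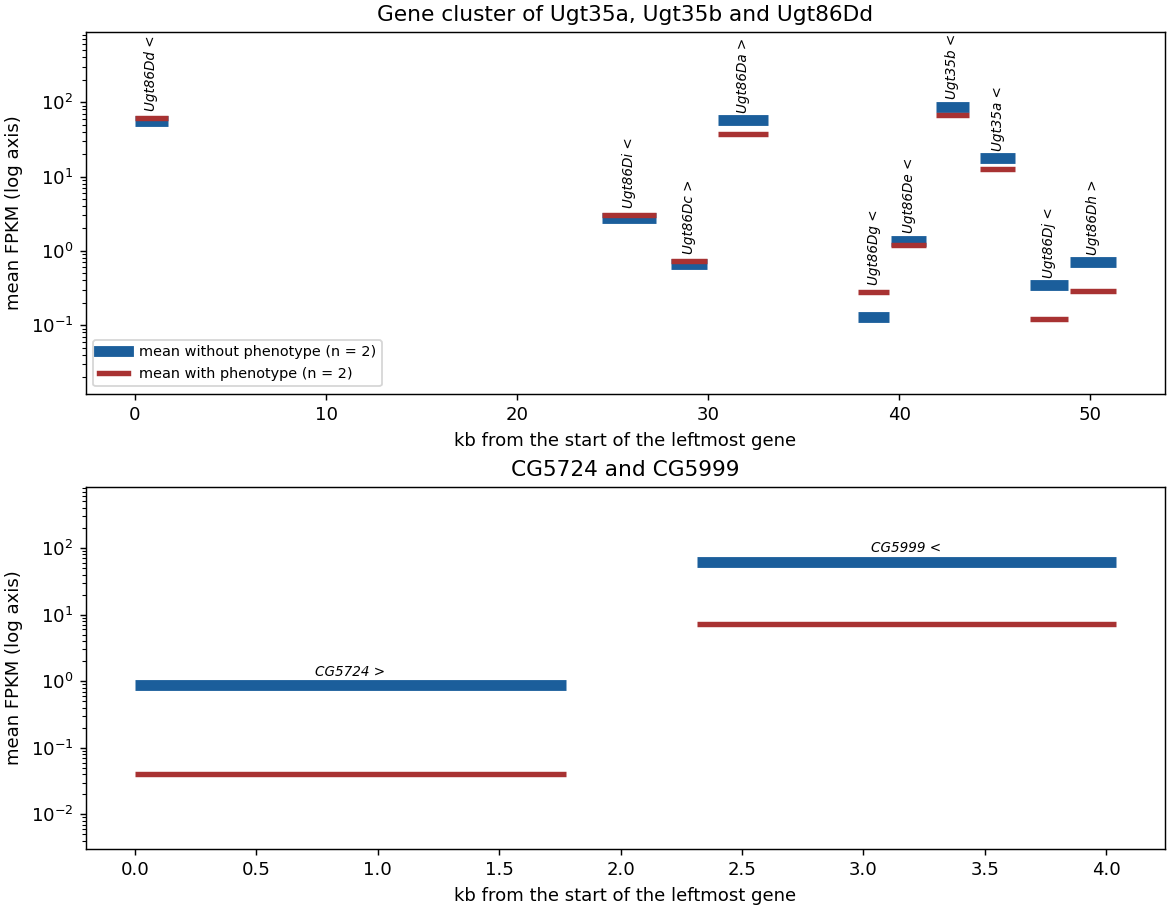
Mean FPKM (log axis, n = 2 per group) of UGT genes against distance along chromosome 3R, with the extent of each gene as a bar and its strand as > or <. In the upper panel Ugt35b and Ugt86De, 522 bp apart, differ 59.9-fold in mean level, and in the lower panel CG5999 averages 62.3 FPKM in unaffected and 7.28 FPKM in affected heads, while CG5724 lies under 1 FPKM in both and was not tested.

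Among the other 25 UGT genes, 12 were tested and 0 passed the threshold (3 at an unadjusted p under 0.05 from limma, all lower, and 0 past the threshold without the trend). With CG5999 left out, 13 of the 17 tested genes of the family had a lower and 4 a higher mean in affected heads, and the median log2 fold change was -0.14, against 0.070 over all genes tested. Both affected libraries lay below both unaffected ones in 9 of the 17 and above both in 0, against 18.3% and 41.3% of all genes tested. At an unadjusted p under 0.05 there were 5 of the 17, against 22.7% of all genes, and all 5 were lower, against 6.67%. The directions of the 17 were the same with libraries rescaled by median ratios. Leaving out 1 library turned the sign of 7 different genes, each with a log2 fold change within 0.17 of 0 in the full fit, among them Ugt86Dd.

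The 8 most abundant UGT genes outside the 10 had a lower mean in affected heads, with CG17322 as the exception. CG10178 was at 54.4 and 66.7 FPKM in unaffected and 51.8 and 44.5 FPKM in affected heads (limma adjusted p = 0.259). On 2R, CG4302 was at 57.5 and 44.4 FPKM in unaffected and 47.7 and 42.7 FPKM in affected heads (limma adjusted p = 0.539). Its neighbor CG15661 was at 37.9 and 42.9 FPKM in unaffected and 30.02 and 31.9 FPKM in affected heads (limma adjusted p = 0.161). Groups did not overlap in CG10178 and CG15661 and overlapped in CG4302. In the Ugt36 array further along 2L, CG17323 was at 19.9 and 20.5 FPKM in unaffected and 16.1 and 16.6 FPKM in affected heads (limma adjusted p = 0.153). Its neighbor CG17322, now Ugt36E1, a UGT of olfactory neurons with a role in pheromone discrimination, had the largest positive fold on log2(FPKM + 1) among the tested genes of the family. It was at 14.1 and 10.4 FPKM in unaffected and 15.1 and 13.6 FPKM in affected heads, with overlapping groups (log2 fold change 0.22 ± 0.153 SE, limma adjusted p = 0.419). Since CG17322 overlaps CG17597 on the opposite strand by 48 bp, some of its reads could belong to that gene. The same holds for CG4302, which overlaps CG44245 by 90 bp. These overlaps are of whole gene extents, introns included, and their exonic part was not determined. CG30438 overlaps TpnC4 over 4430 bp, more than its longest mRNA of 2732 bp, so part of that overlap is intronic in CG30438. CG3797 was at 14.9 to 16.5 FPKM and CG30438 at 12.6 to 14.9 FPKM over the 4 libraries, and these were among the most even of the abundant genes.

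**Figure D3:**
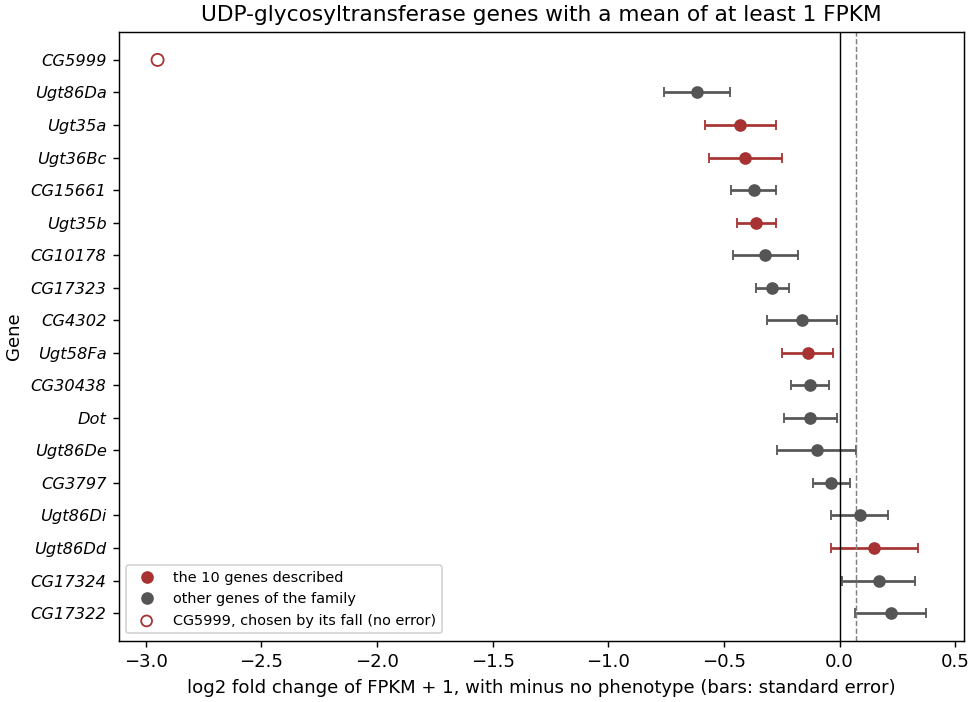
Log2 fold change of FPKM + 1, with minus no phenotype, of the 18 UGT genes above the minimum mean of 1 FPKM. Bars are standard errors from limma, the dashed line is the median of all genes tested at 0.070, and CG5999 has no error since it was chosen by its value. Apart from CG5999 at -2.95, the genes lie between -0.61 and 0.22.

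The level of many UGT genes was highest in unaffected repeat 1. That library held the highest value of 22 of the 35 UGT genes (62.9%). Among those tested it was 10 of 18 (55.6%), against 15.3% of all genes tested. In CG10168, CG10170, CG16732, CG5724, Ugt86Dh and Ugt86Dj it was at least 2-fold above every other library, and each of these 6 had a mean under 1 FPKM. The 3 adjacent genes CG10170, CG16732 and CG10168 summed to 1.74 FPKM in that library and to 0.06 to 0.41 FPKM in the others. The gut markers had the same library as their highest in 12 of 18, among them the maltase gene Mal-A1 at 76.3 FPKM against 1.01 to 2.31 FPKM elsewhere. Whether the low UGT transcripts came from the same source was not tested.

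The donor sugar of the UGTs is made from glucose-1-phosphate by UGP, the UDP-glucose pyrophosphorylase, and exchanged with UDP-galactose by the enzymes of the Leloir pathway. Of 9 genes of UDP sugar supply, 0 passed the threshold (2 at an unadjusted p under 0.05 from limma, Galk and mmy). In 5 of the 9 both affected libraries lay below both unaffected ones, and in 1, sgl, above both, against 18.3% and 41.3% of all genes tested. The 2 of 9 at the unadjusted p, both lower, stand against 22.7% in either direction and 6.67% as lower. UGP was at 515 and 350 FPKM in unaffected and 314 and 279 FPKM in affected heads (limma adjusted p = 0.238). Galk, the galactokinase gene, was at 373 and 278 FPKM in unaffected and 190 and 196 FPKM in affected heads (log2 fold change -0.74, limma adjusted p = 0.147). The dehydrogenase gene sgl, which turns UDP-glucose into UDP-glucuronate, was at 24.1 and 23.1 FPKM in unaffected and 25.8 and 26.6 FPKM in affected heads (limma adjusted p = 0.298). Unaffected repeat 1 was again the highest library for 5 of the 9.

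Other detoxification genes did not pass either. Of 26 P450, P450 reductase, glutathione S-transferase and sulfotransferase genes listed as partners, 24 were tested, and 0 passed (9 at an unadjusted p under 0.05 from limma, 8 of them lower). In 12 of the 24 the affected libraries lay below the unaffected ones, and in 2 above. The shares of all genes tested, here and for the lists that follow, were 18.3% below and 41.3% above. At the unadjusted p they were 22.7% in either direction and 6.67% as lower. GstD1 had the highest mean, at 695 and 673 FPKM in unaffected and 521 and 538 FPKM in affected heads (limma adjusted p = 0.161). Cyp6a8 had the most negative fold, at 64.0 and 66.0 FPKM in unaffected and 28.7 and 33.1 FPKM in affected heads (log2 fold change -1.05, limma adjusted p = 0.104), and GstE1 the most positive, at 50.1 and 47.9 FPKM in unaffected and 72.8 and 60.8 FPKM in affected heads (limma adjusted p = 0.162). Of the efflux transporters, which export conjugates, 6 of 9 matched genes were tested. In 3 of the 6 both affected libraries lay below both unaffected ones, and in 0 above. Of the 6, 0 passed (1 at an unadjusted p under 0.05 from limma). That one was MRP, at 79.3 and 86.5 FPKM in unaffected and 64.8 and 65.1 FPKM in affected heads (limma adjusted p = 0.16), and of the 6 tested genes CG7627 had the only positive fold, at 11.9 to 13.0 FPKM over the 4 libraries. Of 7 genes of the regulators that control detoxification genes in insects, 0 passed (2 at an unadjusted p under 0.05 from limma, maf-S and Hr96, both at higher FPKM in affected heads). In these 2 both affected libraries lay above both unaffected ones, and in 0 of the 7 below. maf-S, the small Maf partner of cnc, had the most positive fold, at 55.0 and 53.9 FPKM in unaffected and 69.2 and 72.7 FPKM in affected heads (limma adjusted p = 0.147). cnc, the fly Nrf2, had the highest mean of these, at 79.3 and 85.1 FPKM in unaffected and 84.1 and 75.8 FPKM in affected heads, with overlapping groups.

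Antennal transcripts, like those of the UGT genes, had a lower summed level in affected heads. The summed FPKM of 19 antennal markers was 4572 and 4137 in unaffected and 3724 and 3857 in affected heads, a ratio of 0.870 affected over unaffected. For the 34 UGT genes without CG5999 the sums were 527 and 468 FPKM in unaffected and 417 and 409 FPKM in affected heads. The ratio was 0.830. Without unaffected repeat 1 the ratios were 0.916 for the antennal markers and 0.883 for these UGT genes. Of the 19 markers, 0 passed the threshold (7 at an unadjusted p under 0.05 from limma, all lower), and in 10 both affected libraries lay below both unaffected ones and in 1 above. Of all genes tested, 18.3% lay below and 41.3% above. The unadjusted p was reached by 22.7% in either direction and by 6.67% as lower. The olfactory coreceptor gene Orco was at 68.6 and 67.8 FPKM in unaffected and 58.0 and 56.9 FPKM in affected heads (limma adjusted p = 0.188). Obp83a, an odorant binding protein gene with the highest mean of the list, had overlapping groups at 836 and 682 FPKM in unaffected and 668 and 755 FPKM in affected heads. Jhedup, an antennal esterase gene, had the most negative fold, at 177 and 184 FPKM in unaffected and 85.6 and 71.0 FPKM in affected heads (log2 fold change -1.20, limma adjusted p = 0.109). The P450 gene Cyp313a1 had the most positive, at 351 and 357 FPKM in unaffected and 472 and 384 FPKM in affected heads (limma adjusted p = 0.305). No marker of the list was at 0, Cyp6w1 stands in this list and among the partner genes, and the part of antennal RNA in the UGT differences was not tested.

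Markers of the adult fat body, another site of UGT transcription, had overlapping sums between groups, with the higher mean sum in affected heads. Their summed FPKM was 3806 and 2657 in unaffected and 4011 and 3696 in affected heads, and in 6 of the 8 both affected libraries lay above both unaffected ones (7 at an unadjusted p under 0.05 from limma, 6 of them higher, and 0 past the threshold). Over all genes tested these shares were 41.3% above and 22.7% at that unadjusted p. The remaining 2 of the 8 markers had a negative fold. In 1 of these both affected libraries lay below both unaffected ones, against 18.3% of all genes tested. Of the Malpighian tubule markers, Uro was at 0 to 0.18 FPKM and salt at 0 to 0.02 FPKM, and the summed level of the 7 was 15.0 to 17.4 FPKM with a ratio of 1.11. The gut markers gave a ratio of 0.555, which turned to 2.66 without unaffected repeat 1, and no part of these markers in the UGT differences was tested.

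**Figure D4:**
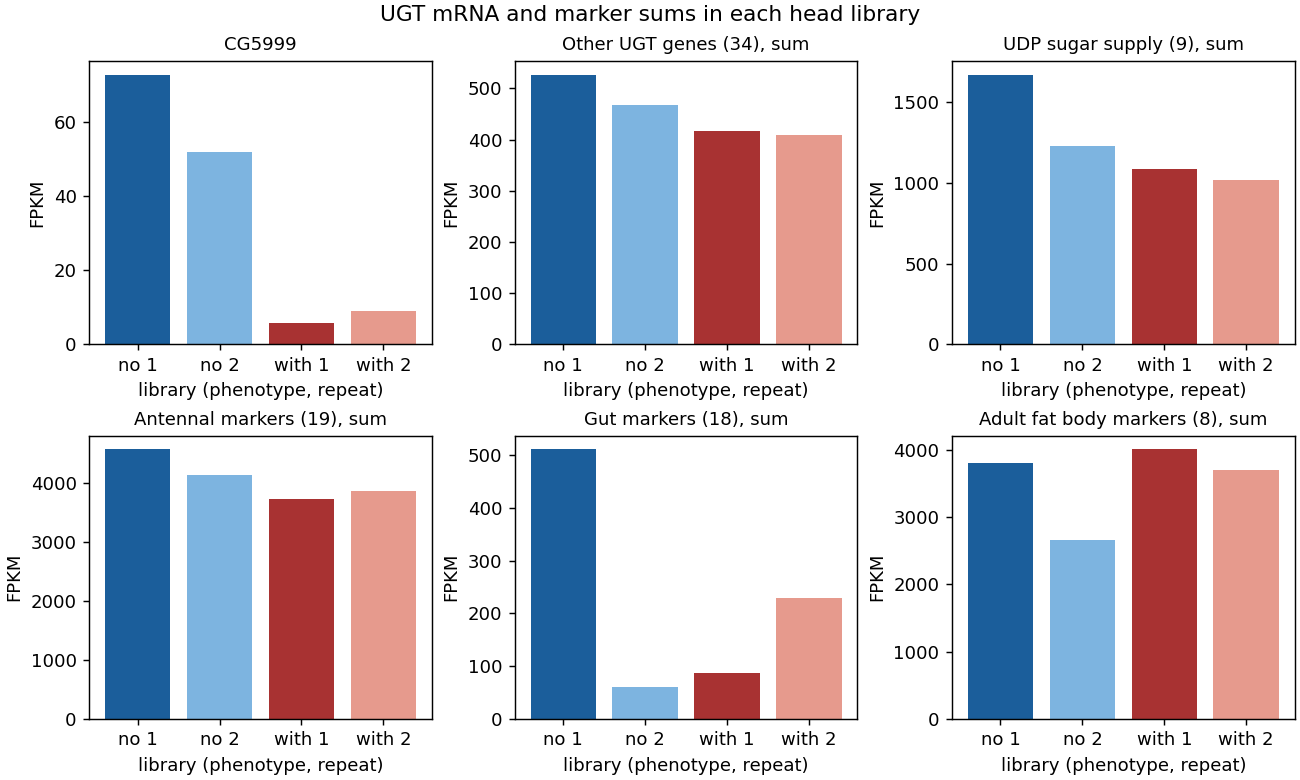
FPKM of CG5999 and summed FPKM of the other 34 UGT genes, 9 genes of UDP sugar supply and the antennal, gut and adult fat body markers, with 1 bar per library from 0. CG5999 and the UGT sum are lower in both affected libraries, the gut markers are highest at 512 FPKM in unaffected repeat 1, and the fat body markers are lowest at 2657 FPKM in unaffected repeat 2.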

How the data were processed

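Total RNA of adult male heads was polyA-selected and sequenced as single-end reads. The authors used Bowtie 2 for alignment to dm6 RefSeq mRNAs and RSEM for quantification, while the processing notes of the submitters also list dm3 with no role. Tool versions are not stated there. Deposited were FPKM at gene level, rounded to 2 decimals, so no count test was used and no counting interval was computed. The value of about 1 read was estimated from genes with 1 annotated transcript, as percentile 1 of FPKM times length. UGT genes were found through RefSeq symbols, locus tags and synonyms, and coordinates are from Ensembl (dm6).

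The fit took genes whose mean reached 1 FPKM, on a log2 scale with a pseudocount of 1, and used limma 3.58.1 under R 4.3.3 (eBayes with trend, two-sided, Benjamini-Hochberg, threshold 0.1). It was tested on simulated data. The paper's EBSeq needs RSEM output. Tables were made with pandas 2.3.3. The members and lists were chosen with earlier results of these data known. Named genes were the 10 members, the 8 most abundant other UGTs, the largest fold of either sign, genes of the same clusters, the neighbors and closest profiles of CG5999, and the extremes of each pathway list and of the antennal markers, those of the other marker lists being left out for length. The efflux list held 1 gene under both of 2 names. The labels call the repeats biological without naming separate cultures, so p-values measure the spread between these libraries.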

Additional observations from a re-analysis of the deposited data

How the results depend on the processing

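Over all genes, the count of 9 past the threshold depended on the processing. It was 23 with a pseudocount of 0.1, 3 with no filter, 109 with a filter of 5 FPKM, 4 with median-ratio scaling, 5 with limma without trend, 4 at a threshold of 0.05 and 0 with a replicate block. Leaving out each library in turn gave 0 to 607, with 607 without unaffected repeat 1, 120 without unaffected repeat 2 and 0 without either affected repeat. Same-numbered libraries tended only weakly to deviate in opposite directions from their group means (r = -0.129 across 10194 genes, which are not independent replicates). A crossed pairing, added after the data were seen, gave 404. The causes were not tested.

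For the UGT genes other than CG5999, 0 passed under each of these settings, with the replicate block and the crossed pairing included. Adjusted p from limma ranged from 0.142 to 0.597 for Ugt35b, 0.133 to 0.656 for Ugt35a, 0.147 to 0.669 for Ugt36Bc, 0.345 to 0.853 for Ugt58Fa and 0.153 to 0.907 for Ugt86Dd. Ugt58Fa had no value with the filter of 5 FPKM. The log2 fold change of Ugt86Dd ranged from -0.10 to 0.40 when each library was left out, and that of CG5999 from -3.25 to -2.65. A library left alone in its group was assumed to vary like the other group. Genes under 1 FPKM rest on too few reads for a comparison.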
